A study of Mus musculus with 8 samples.

Results

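Collagens are the triple-helical proteins of the extracellular matrix, and each of their chains has a gene of its own. The collagen genes described here are all genes whose symbol in the probe annotation is Col, a number, a and a number. Each was represented by the probe set (a group of short probes for 1 transcript) with the highest mean over the 8 arrays, among probe sets that carry only 1 symbol. This rule found 42 collagen genes among 18193 genes on the array, of the 44 collagen genes of the RefSeq table. They comprised 11 fibrillar collagens, the 6 basement membrane collagens Col4a1 to Col4a6, and 25 other collagens. The rule itself reads gene symbols only, but it was set with earlier results of these data known. The signal of 22 of the 42 lay above 2.47, the median of all probe set means, and probe sets below it are called dim here. For 27 collagens the brightest of several probe sets was taken, whereas this median is over all probe sets. The share therefore does not compare collagens with other genes.

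The study profiled hippocampal RNA of female mice of the Tg6799 line and their littermates on Affymetrix mouse arrays. Mutant mice (MT) carry human APP and human PS1, both with familial Alzheimer's disease mutations and driven by Thy1 promoter sequence, which is active in neurons. Littermates (LM) served as controls. The 8 arrays fall into littermates at 4 months (LM4m), mutants at 4 months (MT4m), littermates at 8 months (LM8m) and mutants at 8 months (MT8m), with 2 arrays in each group. Whether the arrays of 1 group stem from different animals is not given in the labels, and the p-values therefore reflect sample-to-sample spread that may be technical. All values are log2 expression values as normalized by the authors. Values of replicates 1 and 2 of a group are given in that order, and ± gives the SE of a difference unless SD is named.

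The library labelled MT8m replicate 1 went against its label in the transgene check. Thy1 was between 11.73 and 11.82 in the other 3 mutant arrays but 9.90 in this array, against 9.53 to 9.96 in the littermate arrays. The 10 listed markers of plaque-associated microglia averaged 4.25 in this array, against 5.83 to 7.14 in the other mutant arrays and 3.88 to 4.41 in the littermates. In the same way, LM4m replicate 1 and LM8m replicate 2 stood apart in 14 markers of meningeal fibroblasts, which averaged 5.67 and 5.68 there and 3.85 to 4.34 in the other 6 arrays. For the genes with the larger differences, values without these arrays are given as well. In the study's published gene tables the genotype names are exchanged relative to the GEO labels of these values. Directions below follow the GEO labels and so oppose those tables.

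Fibrillar collagens such as types I and III are assembled into the banded fibrils of connective tissue and, in the brain, are made mainly by fibroblasts of the meninges, the perivascular space and the stroma of the choroid plexus. Type IV collagen forms the network of basement membranes, which in brain tissue lie around blood vessels and under the pia. The other collagens cover the surface of fibrils (types IX, XII and XIV among others), form beaded microfilaments (type VI), build short-chain networks (types VIII and X), or span the plasma membrane (types XIII, XVII, XXIII and XXV). In whole hippocampus, fewer cells of a type and less RNA per cell cannot be told apart.

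Promoter sequence is shown for 2 pairs of collagens whose values moved together over the arrays, both chains of type VIII collagen and, separately, Col1a2 and Col3a1 of types I and III. The pairs were picked after their values were seen, and other collagens, such as Col4a5 with the latter pair, moved together too. RefSeq (GRCm38.p6) promoter windows were found for 33 of the 42 genes. The 250 bases before the annotated start are printed 5′ to 3′ on the strand of the gene, at chr16:57754738-57754987 on the minus strand for Col8a1, chr4:126286544-126286793 on the plus strand for Col8a2, chr6:4505368-4505617 on the plus strand for Col1a2 and chr1:45311288-45311537 on the plus strand for Col3a1. Capitals mark the TATA box with the letters TATAAA, the CCAAT box with the letters CCAAT or the GC box with the letters GGGCGG, read on either strand and with overlaps allowed.
Col8a1: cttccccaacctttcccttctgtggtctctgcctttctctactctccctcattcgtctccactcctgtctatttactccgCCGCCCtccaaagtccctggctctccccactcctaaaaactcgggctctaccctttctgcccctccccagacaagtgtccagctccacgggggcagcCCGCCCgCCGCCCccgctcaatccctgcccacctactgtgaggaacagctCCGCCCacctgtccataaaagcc
Col8a2: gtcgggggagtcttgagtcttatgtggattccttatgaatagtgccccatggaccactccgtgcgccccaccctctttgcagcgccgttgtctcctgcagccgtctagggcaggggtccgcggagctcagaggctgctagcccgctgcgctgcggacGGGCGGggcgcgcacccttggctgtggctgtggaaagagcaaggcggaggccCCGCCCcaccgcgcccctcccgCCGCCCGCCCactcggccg
Col1a2: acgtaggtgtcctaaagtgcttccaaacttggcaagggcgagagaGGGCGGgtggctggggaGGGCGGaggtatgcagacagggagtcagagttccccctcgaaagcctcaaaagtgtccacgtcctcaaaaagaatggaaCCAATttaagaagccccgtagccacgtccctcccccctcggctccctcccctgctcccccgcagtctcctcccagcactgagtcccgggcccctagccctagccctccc
Col3a1: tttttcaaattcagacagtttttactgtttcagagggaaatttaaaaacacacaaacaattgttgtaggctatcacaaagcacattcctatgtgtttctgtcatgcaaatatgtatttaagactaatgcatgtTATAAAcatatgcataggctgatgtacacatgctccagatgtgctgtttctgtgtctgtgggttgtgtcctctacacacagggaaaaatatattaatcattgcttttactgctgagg
Both type VIII windows hold 4 GC boxes and no TATA or CCAAT box. The Col1a2 window holds 2 GC boxes and 1 CCAAT box, and the Col3a1 window holds a TATA box that starts 117 bases before the annotated start. Of all 32851 RefSeq promoters of this length, 32.7% hold a GC box, 33.8% a CCAAT box and 12.4% a TATA box. Among 36 windows of collagen genes, 21 hold a GC box, 13 a CCAAT box and 5 a TATA box. TAATCC, a motif bound by Otx-type homeodomain factors, is in 6.25% of all promoters and in 0 of the 36 collagen windows. These matches describe the letters of the windows only.

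The first comparison asked which collagens differ between mutants and littermates. Averaged over both ages, 1 of the 42 collagens, Col9a3, passed the limma test at an adjusted p under 0.05, and it was lower in MT. Over all genes 0.0989% passed in this comparison. At an unadjusted p under 0.05 there were 6 collagens (14.3%), all lower in MT, against 6.72% of all genes. These were Col9a3, Col8a2, Col8a1, Col9a2, Col1a2 and Col24a1. Of the 42 collagens, 28 (66.7%) had a lower mean in MT, beside 53.5% of all genes, and the median difference was -0.08 log2 units beside -0.01 for all genes. Leaving out LM4m replicate 1 and LM8m replicate 2, 26 of the 42 were lower beside 52.4% of all genes, and the median was -0.043.

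Col9a3 encodes a chain of type IX collagen, which decorates the surface of cartilage fibrils. It was at 3.91 and 4.37 in LM4m, 3.30 and 2.92 in MT4m, 4.60 and 4.88 in LM8m, and 3.38 and 3.49 in MT8m. All 4 mutant arrays lay below all 4 littermate arrays, and MT8m replicate 1 lay with the other mutant arrays. The averaged difference was -1.17 ± 0.14, which is 2.25-fold lower in MT (adjusted p = 0.0426). At 4 months the difference was -1.04 ± 0.20 (adjusted p = 0.726) and at 8 months -1.31 ± 0.20 (adjusted p = 0.219), so neither age passed alone. A second probe set of Col9a3 gave -1.10 ± 0.21 (adjusted p = 0.301), with MT8m replicate 2 at 3.94 inside the littermate range. Another, dim probe set gave -0.15 ± 0.10. The call did not hold with any single array left out, a fit with fewer samples. The adjusted p was 0.0600 without LM4m replicate 1, 0.0900 without LM4m replicate 2, 0.164 without MT4m replicate 1, 0.260 without MT4m replicate 2, 0.0521 without LM8m replicate 1, 0.150 without LM8m replicate 2, 0.0514 without MT8m replicate 1 and 0.155 without MT8m replicate 2. The difference itself stayed between -1.28 and -1.06 in these fits. With LM4m replicate 1 and LM8m replicate 2 both left out it was -1.22 (adjusted p = 0.131), and after cyclic loess normalisation the adjusted p was 0.0623.

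Col8a1 and Col8a2 encode the chains of type VIII collagen, a short-chain collagen of the corneal endothelial basement membrane and of vessel walls. Col8a1 was at 3.34 and 3.46 in LM4m, 2.05 and 1.99 in MT4m, 3.54 and 4.93 in LM8m, and 1.96 and 2.36 in MT8m. Col8a2 was at 3.46 and 3.71 in LM4m, 2.37 and 2.48 in MT4m, 3.63 and 4.60 in LM8m, and 2.47 and 2.48 in MT8m. For both chains all 4 mutant arrays lay below all 4 littermate arrays, and LM8m replicate 2 was the highest array. The averaged difference of Col8a2 was -1.40 ± 0.19 (adjusted p = 0.0816), 2.63-fold lower in MT. That of Col8a1 was -1.73 ± 0.26 (adjusted p = 0.139), 3.31-fold lower. Neither passed the threshold. The 95% intervals ran from -1.83 to -0.96 for Col8a2 and from -2.33 to -1.13 for Col8a1.

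The type VIII values depended on the pair of LM8m arrays, which differed from each other by more than the other pairs. Fits with an array left out have 1 array in a group, so only their differences are given here. Without LM8m replicate 1 the averaged difference of Col8a1 was -2.07 and without LM8m replicate 2 it was -1.38. Col8a2 likewise gave -1.64 and -1.15. For both chains these were the lowest and the highest difference with any 1 array left out. At 8 months the difference was -2.08 ± 0.37 for Col8a1 (adjusted p = 0.364) and -1.63 ± 0.27 for Col8a2 (adjusted p = 0.301), so neither passed. With any 1 array left out these ranged from -2.77 to -1.38 and from -2.12 to -1.15. Without MT8m replicate 1 the averaged differences were -1.62 for Col8a1 and -1.40 for Col8a2. With LM4m replicate 1 and LM8m replicate 2 both left out they were -1.41 and -1.22. A second probe set of Col8a1 gave -1.22 ± 0.21 (adjusted p = 0.228) and another, dim one gave -0.01. Col10a1, the remaining short-chain collagen and a marker of hypertrophic cartilage, gave -0.10.

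**Figure D1:**
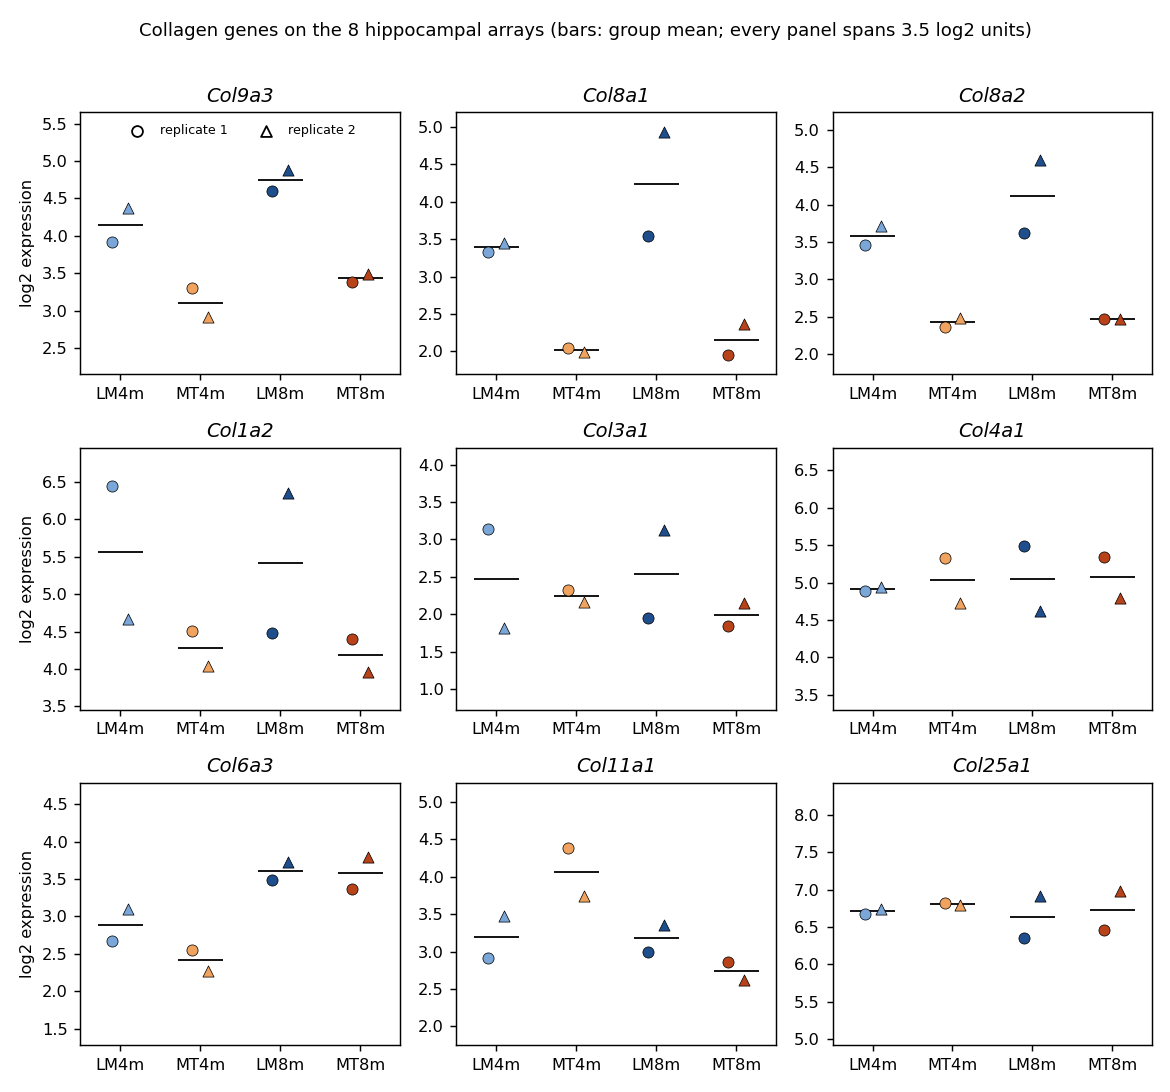
Log2 expression (vertical axis) of 9 collagen genes in the 4 groups (horizontal axis), with 1 point per array, circles for replicate 1, triangles for replicate 2 and a bar at the group mean. Every panel spans the same 3.5 log2 units, so distances can be compared between panels, but levels of different probe sets cannot. The mutant arrays lie below the littermate arrays for Col9a3, Col8a1 and Col8a2, whereas single littermate arrays stand out for Col1a2 and Col3a1.

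These 3 collagens moved over the arrays with markers of the choroid plexus, the tissue that secretes cerebrospinal fluid and lies beside the hippocampus in the ventricle. Of 11 measured markers, 9 passed in the averaged comparison, beside 0.0989% of all genes. The markers were chosen with earlier results of these data known, so this count is a description and not a test. All 11 were lower in MT, beside 53.5% of all genes, with a median difference of -1.92. Their mean level was 5.09 and 5.39 in LM4m, 3.56 and 3.54 in MT4m, 5.30 and 6.29 in LM8m, and 3.49 and 3.31 in MT8m. Kcnj13, a potassium channel of this epithelium, differed by -3.41 ± 0.30 (adjusted p = 0.0100), and Otx2, a homeodomain factor of the choroid plexus, by -1.78 (adjusted p = 0.0248). As with the type VIII chains, LM8m replicate 2 had the highest value. How far the choroid plexus content of the samples sets the collagen values was not tested.

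Col9a2 and Col24a1 were the other collagens whose mutant arrays all lay below the littermate arrays. In all 5 collagens did so (Col24a1, Col9a2, Col9a3, Col8a1 and Col8a2), beside 2.42% of all genes, and 0 collagens had all mutant arrays above, beside 1.28% of all genes. Col9a2, a second type IX chain, was at 1.99 and 2.11 in LM4m, 1.64 and 1.69 in MT4m, 1.79 and 1.91 in LM8m, and 1.75 and 1.78 in MT8m, with an averaged difference of -0.24 ± 0.09 (adjusted p = 0.853). Col24a1, a fibrillar collagen, was at 1.41 and 1.40 in LM4m, 1.02 and 1.14 in MT4m, 1.39 and 1.35 in LM8m, and 1.25 and 1.30 in MT8m, a difference of -0.21 ± 0.08. Both probe sets were among the dimmer ones, and at 8 months the groups nearly met. Col9a1, the remaining type IX chain, did not follow Col9a3 and is described with the age comparisons.

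Of the fibrillar collagens, 9 of 11 had a lower mean in MT averaged over ages and 10 of 11 at 8 months, with median differences of -0.13 and -0.22. Of all genes, 53.5% and 49.4% were lower. With LM4m replicate 1 and LM8m replicate 2 both left out, 9 of 11 were lower in each comparison, but the medians were -0.036 and -0.11, and at 4 months the median went from -0.046 to 0.051. Of the 11, 0 passed and 2 (Col1a2 and Col24a1) had an unadjusted p under 0.05 in the averaged comparison. Col1a2, a chain of type I collagen, was at 6.45 and 4.67 in LM4m, 4.51 and 4.04 in MT4m, 4.48 and 6.35 in LM8m, and 4.40 and 3.96 in MT8m. LM4m replicate 1 and LM8m replicate 2 stood well above the rest, and the other littermate arrays overlapped the mutant ones. The averaged difference was -1.26 ± 0.47 (adjusted p = 0.853), and with these 2 arrays left out it was -0.35 ± 0.19 (adjusted p = 0.988). Without LM4m replicate 1 alone it was -0.82, and without LM8m replicate 2 alone -0.79. A second, dim probe set of Col1a2 was again highest in these arrays, at 2.61 and 2.43, and gave -0.25 ± 0.24. Another, dimmer probe set was at 1.32 and 1.51 there and gave 0.15 ± 0.12.

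Col3a1, the type III chain of reticular fibres, was at 3.14 and 1.81 in LM4m, 2.33 and 2.16 in MT4m, 1.94 and 3.13 in LM8m, and 1.84 and 2.14 in MT8m. The same 2 arrays were the highest. Its difference was -0.39 ± 0.32 (adjusted p = 0.897), and 0.24 ± 0.14 with both arrays left out, on the other side of 0. Col4a5, a minor chain of basement membranes, shared this order with 2.57 and 2.06 in LM4m, 1.98 and 2.06 in MT4m, 1.95 and 2.95 in LM8m, and 2.00 and 1.97 in MT8m. Its difference was -0.38 ± 0.21, and -0.0010 ± 0.11 with both arrays left out. In 3 collagens, Col1a2, Col3a1 and Col4a5, these 2 arrays were the highest of the 8, beside 4.09% of all genes. The type I partner chain Col1a1 did not show it, with 2.18 and 1.99 in LM4m, 2.20 and 2.27 in MT4m, 2.36 and 2.16 in LM8m, and 2.02 and 2.08 in MT8m, values that are dim on this array.

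The same 2 arrays had the highest mean of the 14 meningeal markers noted above. All 14 were lower in MT averaged over ages, beside 53.5% of all genes, with these 2 arrays included. Their mean was 4.07 in LM4m replicate 2 and 4.34 in LM8m replicate 1, close to the 3.85 to 4.16 of the mutant arrays. How many stay lower with the 2 high arrays left out was not counted. Of the 14 markers 0 passed, and 5 had an unadjusted p under 0.05, beside 6.72% of all genes. Ogn, a small proteoglycan of fibroblasts, was at 6.59 in both of these arrays and at 3.19 to 4.26 in the other 6. Not every marker was highest there. Dcn was at 8.25 in MT4m replicate 1, against 8.11 in LM4m replicate 1 and 7.91 in LM8m replicate 2. Its genotype difference was 0.26 at 4 months and -0.25 averaged over ages. Igf2, a growth factor made by meninges and choroid plexus, differed by -1.94 ± 0.27 (adjusted p = 0.0892). The 3′ minus 5′ signal of the Gapdh control, a measure of RNA integrity, was 2.19 in LM4m replicate 1 and 0.66 in LM8m replicate 2, the highest and the lowest of the 8 arrays, with 0.93 to 1.42 in the others. The parts of meningeal tissue and of RNA integrity in the fibrillar values were not tested.

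**Figure D2:**
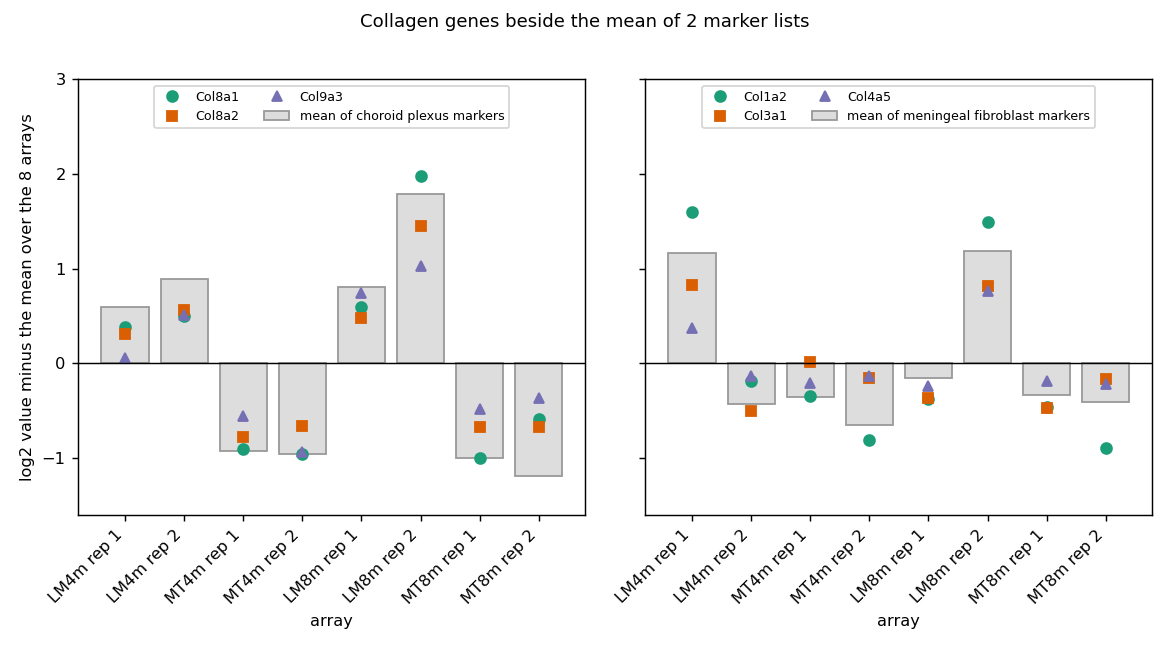
Deviation of each array from the mean over the 8 arrays (vertical axis, log2 units) for the mean of a marker list (grey bars) and for 3 collagens (points), with the arrays on the horizontal axis. Left, Col8a1, Col8a2 and Col9a3 lie above 0 in the 4 littermate arrays and below 0 in the 4 mutant arrays, as the choroid plexus mean does. Right, Col1a2, Col3a1 and Col4a5 are highest in LM4m replicate 1 and LM8m replicate 2, as the meningeal mean is.

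The type V chains had smaller genotype differences. Col5a2, a regulatory chain of type V collagen, was at 3.43 and 3.62 in LM4m, 3.17 and 2.92 in MT4m, 2.89 and 3.05 in LM8m, and 3.18 and 2.51 in MT8m, a genotype difference of -0.30 ± 0.15 (adjusted p = 0.853). Without MT8m replicate 1 it was -0.47 ± 0.12 (adjusted p = 0.310). Col5a1, the main type V chain, gave -0.21, and -0.051 with LM4m replicate 1 and LM8m replicate 2 both left out. Col5a3, another type V chain, was at 2.00 and 1.76 in LM4m, 1.84 and 2.12 in MT4m, 2.26 and 2.10 in LM8m, and 1.96 and 1.82 in MT8m, and the groups overlapped.

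The basement membrane collagens had a median genotype difference of -0.09 averaged over ages, beside -0.01 for all genes. It was -0.13 for the 11 fibrillar and -0.07 for the 25 other collagens. At 8 months the basement membrane median was -0.13, beside 0.002 for all genes. Averaged over ages, 4 of the 6 were lower in MT, beside 53.5% of all genes, and 1 of these, Col4a6, was at -0.00037. None passed or reached an unadjusted p under 0.05, beside 6.72% of all genes at that unadjusted p. Col4a1 and Col4a2 form the common type IV heterotrimer of vessel basement membranes and are transcribed away from each other, with RefSeq starts 21 bases apart on mouse chromosome 8. Col4a1 was at 4.90 and 4.94 in LM4m, 5.33 and 4.73 in MT4m, 5.49 and 4.61 in LM8m, and 5.35 and 4.80 in MT8m. Col4a2 was at 3.83 and 4.20 in LM4m, 4.33 and 4.19 in MT4m, 4.57 and 3.95 in LM8m, and 4.86 and 3.94 in MT8m. For both chains the highest arrays were replicate 1 of MT4m, LM8m and MT8m, and the groups overlapped throughout. The averaged genotype difference was 0.07 for Col4a1 (95% interval -0.44 to 0.57, adjusted p = 0.980) and 0.19 for Col4a2 (-0.31 to 0.69, adjusted p = 0.926). These were -0.16 and -0.061 with LM4m replicate 1 and LM8m replicate 2 both left out, and without MT8m replicate 1 they were -0.069 and -0.043, all on the other side of 0. The endothelial markers averaged 4.22 to 4.56 over the 8 arrays and the mural cell markers 3.66 to 4.38, and 0 of 9 and 0 of 10 passed in any comparison. Averaged over ages, 2 of 9 endothelial (median 0.21) and 9 of 10 mural markers (median -0.08) were lower in MT, beside 53.5% of all genes. Of the mural markers, 10 were lower in MT at 4 months (median -0.35), beside 55.2% of all genes. At 8 months 5 were lower (median -0.02), beside 49.4%.

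Col4a3, a chain of the kidney and lung type IV network, was at 2.17 and 1.89 in LM4m, 2.00 and 1.75 in MT4m, 2.04 and 2.02 in LM8m, and 1.59 and 1.83 in MT8m. Its difference was -0.24 ± 0.11 (adjusted p = 0.853). Col4a4 gave -0.18 and Col4a6 gave -0.00. Among laminins, nidogens and heparan sulphate proteoglycans, the partners of type IV collagen in the basement membrane, 0 of 11 passed. Nid1, which links laminin to type IV collagen, had a difference of -0.40 ± 0.25. Its highest values, 3.75 and 3.54, were in LM4m replicate 1 and LM8m replicate 2, where the meningeal markers were high, and with both left out the difference was 0.064 ± 0.16, on the other side of 0. Hspg2 (perlecan) had a difference of 0.15 ± 0.09, and 0.24 ± 0.11 with both left out.

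**Figure D3:**
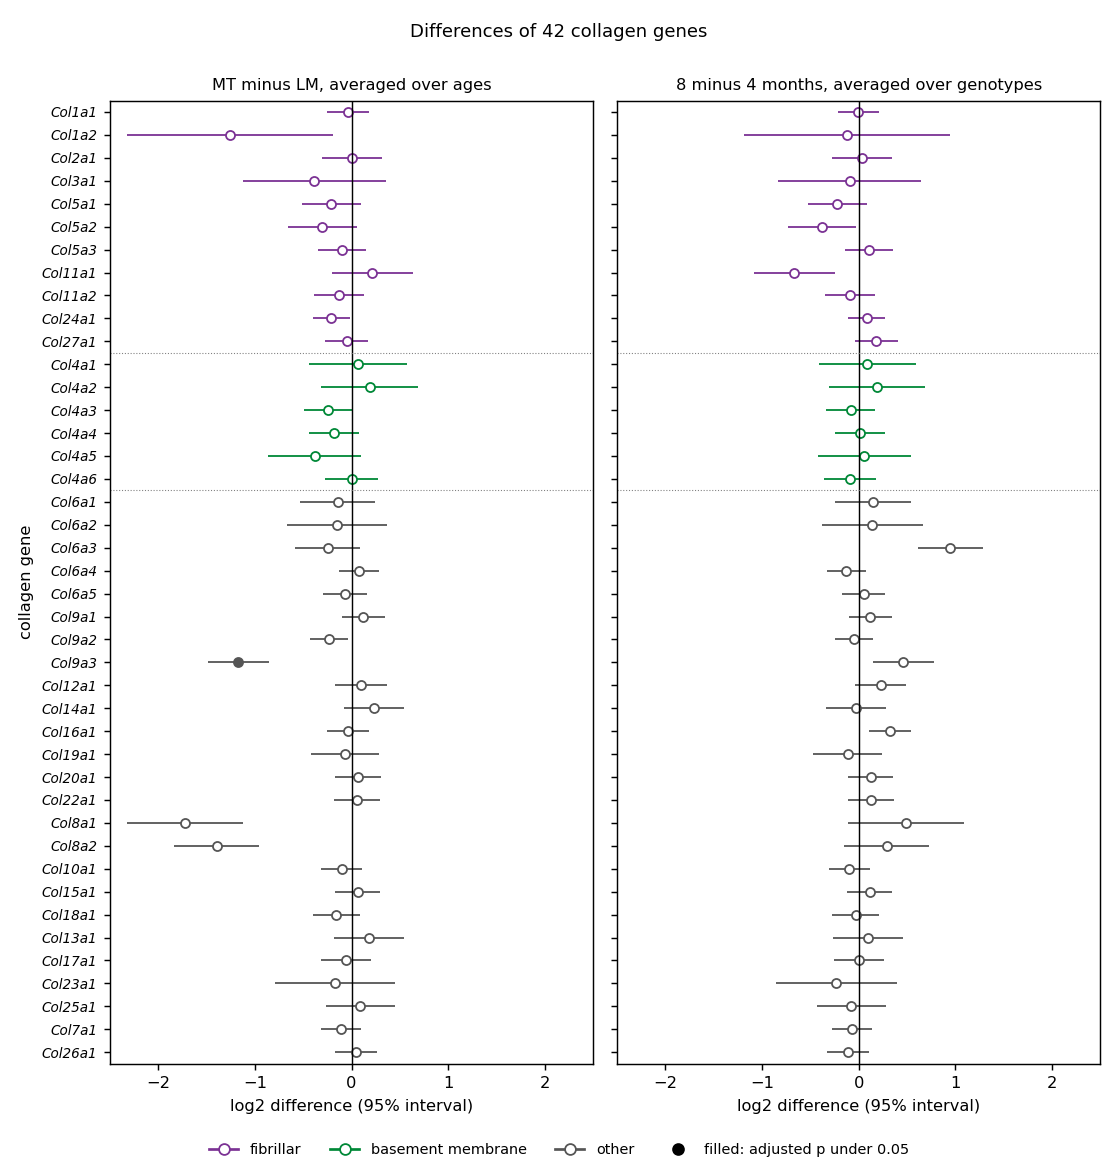
Log2 difference (horizontal axis) with its 95% interval for each of the 42 collagens (vertical axis, by class), for MT minus LM (left) and 8 minus 4 months (right). Only Col9a3 in the left panel has a filled point, which marks an adjusted p under 0.05, and most intervals of the other genes cross 0.

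Within single ages the genotype comparison called 0 of 42 collagens. At 4 months 0% of all genes passed, and 7 collagens (16.7%) had an unadjusted p under 0.05 beside 5.74% of all genes. At 8 months 0.022% of all genes passed, and 3 collagens (7.14%), which were Col9a3, Col8a2 and Col8a1, had an unadjusted p under 0.05 beside 3.54% of all genes. At 4 months the 7 included Col11a1 and Col9a1, which were higher in MT. The median difference of the 25 other collagens was -0.11 at 4 months and -0.02 at 8 months. Aside from Col9a3, Col8a2, Col8a1 and Col1a2, the averaged genotype differences of the remaining 38 collagens lay between -0.39 (Col3a1) and 0.23 (Col14a1), with adjusted p-values of 0.853 or more.

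The age comparison asked which collagens differ between 4 and 8 months. By limma 0 collagens passed, averaged over genotypes or in LM or MT alone, and 0% of all genes passed in each of these 3 comparisons. At an unadjusted p under 0.05 there were 5 collagens (11.9%) averaged over genotypes, beside 6.47% of all genes, which were Col6a3, Col11a1, Col16a1, Col9a3 and Col5a2. In LM alone there were 4 (9.52%) beside 3.48%, and in MT alone 3 (7.14%) beside 5.78%. Median differences averaged over genotypes were -0.09 for fibrillar, 0.03 for basement membrane and 0.10 for other collagens, and -0.00 for all genes.

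Col6a3 encodes the largest chain of type VI collagen, a microfibrillar collagen found between basement membranes and interstitial matrix. It was at 2.67 and 3.10 in LM4m, 2.55 and 2.27 in MT4m, 3.48 and 3.73 in LM8m, and 3.37 and 3.79 in MT8m. All 4 arrays of 8 months lay above all 4 arrays of 4 months, whatever the genotype. The averaged difference was 0.95 ± 0.15, or 1.93-fold (95% interval 0.61 to 1.28), with an adjusted p of 0.393 over all probe sets. It was 0.72 ± 0.21 in LM and 1.17 ± 0.21 in MT, and the genotype difference was -0.25 ± 0.15, or -0.14 without MT8m replicate 1. With each array left out in turn the averaged difference ranged from 0.84 to 1.05 and did not pass. The partner chains did not show this. Col6a1 gave 0.15 and Col6a2 0.14, with Col6a2 at 4.59 and 3.37 in LM4m, 3.84 and 4.02 in MT4m, 4.24 and 4.21 in LM8m, and 3.93 and 4.01 in MT8m.

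Col16a1, a fibril-associated collagen, was the other collagen with all 8-month arrays above all 4-month arrays. It was at 3.78 and 3.59 in LM4m, 3.49 and 3.56 in MT4m, 3.87 and 3.89 in LM8m, and 3.86 and 4.08 in MT8m, a difference of 0.32 ± 0.09 (adjusted p = 0.642). These 2 of 42 collagens stand beside 1.37% of all genes, and 0 collagens had all 8-month arrays below, beside 2.44%. Col9a3 had an age difference of 0.46 ± 0.14 (adjusted p = 0.651), 0.60 in LM and 0.33 in MT. Col5a2 differed by -0.38 ± 0.15 (adjusted p = 0.740). Leaving out Col6a3 and Col11a1, the age differences of the remaining 40 collagens lay between -0.38 (Col5a2) and 0.49 (Col8a1).

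Col11a1, a minor fibrillar chain that sets fibril width in cartilage, had its largest spread between the mutant groups. It was at 2.91 and 3.47 in LM4m, 4.38 and 3.74 in MT4m, 3.00 and 3.36 in LM8m, and 2.86 and 2.62 in MT8m. Both MT4m arrays were the highest of the 8 and both MT8m arrays the lowest. The age difference was -1.32 ± 0.26 in MT (adjusted p = 0.747) and -0.01 ± 0.26 in LM, and the genotype difference was 0.87 ± 0.26 at 4 months and -0.44 ± 0.26 at 8 months. The interaction was -1.31 ± 0.37 (adjusted p = 1.00). Without overlap, 5 collagens (Col1a1, Col11a1, Col24a1, Col9a1 and Col9a2) had opposite directions by genotype at the 2 ages or by age in the 2 genotypes, beside 5.2% of all genes. In the interaction 0% of all genes passed, and 2 collagens (4.76%), Col11a1 and Col9a1, had an unadjusted p under 0.05 beside 2.58% of all genes. The second probe set again had MT4m highest and MT8m lowest, at 2.66 and 3.63 in LM4m, 3.96 and 4.00 in MT4m, 2.90 and 3.51 in LM8m, and 2.40 and 2.48 in MT8m. Without MT8m replicate 1 the age difference in MT was -1.44 ± 0.33 (adjusted p = 0.383).

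**Figure D4:**
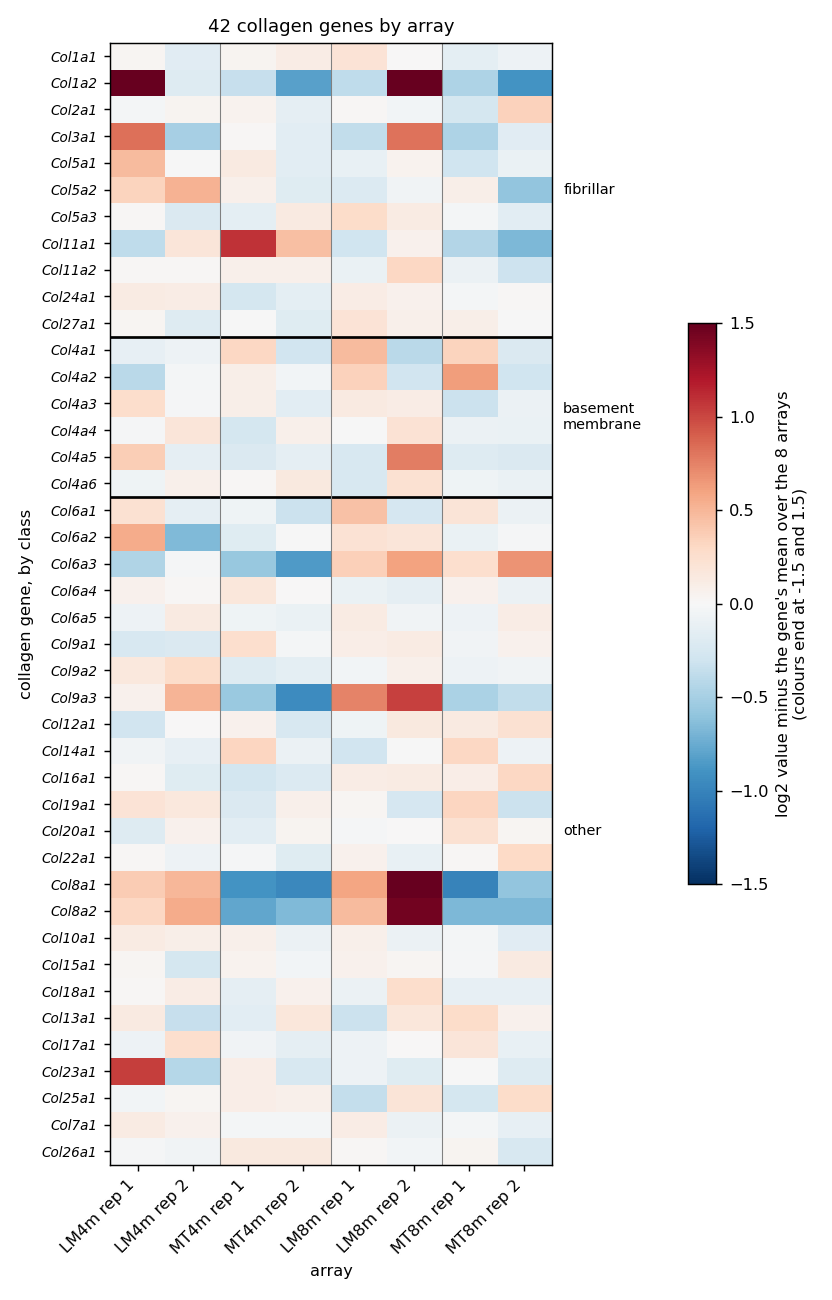
Log2 value minus the gene's mean over the 8 arrays (colour, ending at -1.5 and 1.5) for 42 collagens (rows, by class) in 8 arrays (columns). Most rows are pale. Strong colours lie in Col1a2 and Col3a1 of LM4m replicate 1 and LM8m replicate 2, and in Col23a1 of LM4m replicate 1. They also lie in Col4a5 of LM8m replicate 2 and Col11a1 of MT4m replicate 1. The others are in Col8a1, Col8a2 and Col9a3 by genotype and in Col6a3 by age.

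Col25a1 encodes the membrane collagen whose shed ectodomain was found in amyloid plaques, and its gene is expressed by neurons. It was at 6.68 and 6.74 in LM4m, 6.82 and 6.79 in MT4m, 6.36 and 6.91 in LM8m, and 6.46 and 6.99 in MT8m. The groups overlapped, and at 8 months the arrays of one group differed by more than the groups did. The genotype difference was 0.09 ± 0.16 (95% interval -0.26 to 0.44, adjusted p = 0.956). It was 0.22 without MT8m replicate 1. Col18a1, the basement membrane proteoglycan that releases endostatin, was at 2.94 and 3.03 in LM4m, 2.78 and 2.97 in MT4m, 2.83 and 3.18 in LM8m, and 2.79 and 2.80 in MT8m, a difference of -0.16 ± 0.11 (adjusted p = 0.876), or -0.092 with LM4m replicate 1 and LM8m replicate 2 both left out. Of the 4 membrane collagens Col23a1 had 1 array apart, with 4.01 in LM4m replicate 1 and 2.55 to 3.08 in the other 7. Its genotype difference was -0.17, and 0.17 with LM4m replicate 1 and LM8m replicate 2 both left out.

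Col9a1, Col11a2, Col22a1 and Col26a1 were dim. Col9a1 was at 2.16 and 2.18 in LM4m, 2.66 and 2.37 in MT4m, 2.50 and 2.53 in LM8m, and 2.35 and 2.47 in MT8m. On this probe set MT was higher at 4 months by 0.35 ± 0.14 and lower at 8 months by 0.10. A second, dim probe set was higher in MT at both ages, by 0.16 and 0.25. Col11a2, a type XI chain, was at 2.15 and 2.15 in LM4m, 2.20 and 2.20 in MT4m, 2.03 and 2.44 in LM8m, and 2.04 and 1.82 in MT8m. Col22a1, a collagen of tissue junctions, was at 2.05 and 1.96 in LM4m, 2.01 and 1.85 in MT4m, 2.09 and 1.91 in LM8m, and 2.04 and 2.32 in MT8m. Col26a1 was at 2.05 and 2.01 in LM4m, 2.21 and 2.21 in MT4m, 2.08 and 2.03 in LM8m, and 2.11 and 1.83 in MT8m. The smallest adjusted p of these 4 in a comparison of genotype or age was 0.885. Another 13 collagens, Col5a1 among them, are given by their range, and 6 of them lay above the median of all probe set means. Col19a1, a fibril-associated collagen, was the brightest of these with a mean of 4.68, followed by Col27a1, a fibrillar collagen, with 4.12. Their averaged genotype differences lay between -0.21 and 0.23 and their age differences between -0.22 and 0.22, with adjusted p-values of 0.858 or more and 0.796 or more.

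The enzymes and partners of collagen were compared in the same fit. Of 11 genes of procollagen cleavage and cross-linking, 1 passed by genotype averaged over ages, beside 0.0989% of all genes. Pcolce2, an enhancer of the proteinase that removes the C-propeptide, was at 4.86 and 5.04 in LM4m, 3.79 and 4.06 in MT4m, 5.35 and 5.71 in LM8m, and 4.70 and 4.63 in MT8m, a difference of -0.95 ± 0.12 (adjusted p = 0.0479). Its mutant arrays lay below all littermate arrays. The limma call was lost without LM4m replicate 1 (adjusted p = 0.148), LM4m replicate 2 (0.136), MT4m replicate 1 (0.330), MT4m replicate 2 (0.196), LM8m replicate 2 (0.131) or MT8m replicate 2 (0.210). Its paralogue Pcolce was at 5.65 and 4.60 in LM4m, 3.05 and 3.22 in MT4m, 4.99 and 6.16 in LM8m, and 3.01 and 3.31 in MT8m. The difference was -2.20 ± 0.29 (adjusted p = 0.0649), which did not pass. With any 1 array left out it ranged from -2.50 to -1.91. For Pcolce all mutant arrays lay below all littermate arrays. LM4m replicate 1 and LM8m replicate 2 were the highest, and with both left out the difference was -1.65. Loxl1, a cross-linking oxidase, had a difference of -0.33 ± 0.11. The choroid plexus and meningeal values given above stand beside these as well.

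In the hydroxylation and folding list, 0 of 16 passed and 12 were lower in MT, beside 53.5% of all genes. The median was -0.06, beside -0.01 for all genes. Serpinh1, the collagen chaperone of the endoplasmic reticulum, was at 6.25 and 5.26 in LM4m, 5.03 and 4.66 in MT4m, 5.13 and 5.52 in LM8m, and 4.71 and 4.58 in MT8m, a difference of -0.79 ± 0.21 (adjusted p = 0.726). LM4m replicate 1 and LM8m replicate 2, the arrays with high meningeal markers, were again the highest, and with both left out the difference was -0.45 ± 0.14 (adjusted p = 0.988). Of 9 measured collagen receptors 0 passed. Lair1, an inhibitory collagen receptor of leukocytes, was at 2.08 and 2.36 in LM4m, 2.80 and 2.74 in MT4m, 1.93 and 2.31 in LM8m, and 2.53 and 3.76 in MT8m, a difference of 0.79 ± 0.24 (adjusted p = 0.775). Its mutant arrays all lay above the littermate arrays, and without MT8m replicate 1 the difference was 1.09 ± 0.13 (adjusted p = 0.0270). Of 8 collagen-degrading metalloproteinases and their inhibitors 0 passed, and Timp3, a matrix-bound inhibitor, had a difference of -0.50 ± 0.14 (adjusted p = 0.763). It too was highest in LM4m replicate 1 (7.24) and LM8m replicate 2 (7.49), and with both left out the difference was -0.28 ± 0.13 (adjusted p = 0.988). Over the 4 groups at once, the moderated F test called 0 collagens, and the smallest adjusted p was 0.163 for Col9a3.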

How the data were processed

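Hippocampal RNA was measured on 8 one-colour Affymetrix arrays. Log2 values of 45101 probe sets were deposited after RMA normalization by the authors in the package affy, whose version is not given in the sources used here. No scanner files or detection calls were used, and the zero point of the scale is unknown. The 64 control probe sets were left out. The probe annotation gave 1 symbol for 34945 of the 45037 tested probe sets, and RefSeq symbols were taken by Entrez identifier (GRCm38.p6, for names and promoter windows).

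Group means were fitted with limma 3.58.1 in R 4.3.3 over all 8 arrays (4 residual degrees of freedom), the closest form of the 4-class comparison that the methods name. P-values are two-sided, adjusted by Benjamini-Hochberg over all 45037 probe sets, and a gene passed at an adjusted p under 0.05. The fit was tested on simulated data. Precision is limited by the number of arrays. Array correlations lay between 0.985 and 0.993.

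The collagen rule, the classes and the 11 pathway and marker lists were chosen with earlier results of these data known. Values in every array are given for Col6a3, Col1a2, Col4a1, Col1a1, Col3a1, Col4a2, Col18a1 and Col25a1, for collagens that passed, and for the 5 with the smallest p in each comparison. Of each list up to 4 members with the largest genotype difference could be named. Col6a2, Col4a5, Col24a1, Col23a1 and Otx2 were added after their values were seen. The alternatives were cyclic loess, leaving out dim probe sets, a robust trended prior, 1 probe set or the mean of all probe sets per gene, an additive model, only the 2 groups compared, a block for the title number, and arrays left out singly or as a pair. A crossed block was added after seeing the data. A value that passed in neither setting was not counted as reversed.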

Additional observations from a re-analysis of the deposited data

Results flagged for a closer look

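In 5 collagens, both arrays of one group moved without overlap in one direction and both arrays of the other group in the opposite direction, for genotype at the 2 ages or for age in the 2 genotypes. Over all genes 5.2% show this, and none of the 5 interactions passed the limma test (adjusted p = 1.00 for each). The interaction, which is the genotype difference at 8 months minus that at 4 months, was -1.31 for Col11a1. It was -0.45 for Col9a1, -0.36 for Col1a1, 0.30 for Col9a2 and 0.23 for Col24a1. The last 4 probe sets were below the median of all probe set means. A second, dim probe set of Col1a1 went the other way, at -0.07 by genotype at 4 months and 0.09 at 8 months. That of Col9a1 was higher in MT at both ages, by 0.16 and 0.25. The second probe set of Col11a1 again changed direction, with 0.84 and -0.76. Col9a2 and Col24a1 have 1 probe set each. Without MT8m replicate 1 the interaction of Col11a1 was -1.43 (adjusted p = 0.999), and without MT4m replicate 1 it was -0.99 (adjusted p = 1.00).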

How the results depend on the processing

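The count of collagens that passed as lower in MT averaged over ages was 1. It became 2 (Col9a3 and Col8a2) with dim probe sets left out, with a trended and robust prior and with 1 probe set per gene. This count was 0 with cyclic loess, where Col9a3 had an adjusted p of 0.0623. With 1 array left out it ranged from 0 to 2, and the 2 were Col8a1 and Col8a2 without either LM8m array. At 8 months the count of 0 ranged from 0 to 2 with 1 array left out, and at 4 months it was 1 (Col8a1) with the 2 groups alone. Age and interaction counts stayed at 0 in every setting run. Same-numbered arrays of the 2 ages deviated together in LM (r = 0.241) and not in MT (r = -0.175). These 2 values cannot show whether a number stands for a shared batch or pair, and the labels do not say. In LM the Gapdh 3′ minus 5′ signal was higher in replicate 1 at both ages. It was 2.19 and 1.03 in LM4m, and 1.42 and 0.66 in LM8m. With the replicate block the averaged genotype count was 2. With the mutant numbers crossed it was 3, and 2 at 8 months. The count of collagen pathway genes that passed as lower or higher in MT averaged over ages, examined under these settings after seeing the data, was 1 (Pcolce2). It became 2, with Pcolce added, when dim probe sets were left out, with a trended and robust prior, with 1 probe set per gene and in the additive model. It was 0 with cyclic loess (Pcolce2 adjusted p = 0.0566) and with the replicate block (0.0575), and ranged from 0 to 2 with 1 array left out. At 8 months it was 0, and ranged from 0 to 1 (Lair1, without MT8m replicate 1). With LM4m replicate 1 and LM8m replicate 2 both left out the averaged count was again 1, but the gene was Pcolce. No value that passed in one setting took the other sign.

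Class medians shifted by more than their replicate spread as follows. With dim probe sets left out, only the brighter members of each class remained, so these medians cover fewer genes than the full classes. For basement membrane the genes left were Col4a1, Col4a2 and Col4a6. At 4 months the medians were -0.25 for fibrillar, 0.11 for basement membrane and -0.20 for other collagens. For basement membrane the median was 0.021 at 8 months. The averaged genotype medians were then 0.068 for basement membrane and -0.15 for other, and the age medians -0.22 for fibrillar and 0.14 for other. With the mean of all probe sets they were -0.11 for fibrillar at 8 months, and 0.031 for fibrillar and 0.052 for other by age. With LM4m replicate 1 and LM8m replicate 2 both left out, fibrillar medians were 0.051 at 4 months, -0.11 at 8 months and -0.036 averaged, other collagens gave 0.011 by genotype and 0.052 by age, and basement membrane collagens -0.038 by age. With 1 array left out, fibrillar medians ranged from -0.14 to 0.051 at 4 months, -0.36 to -0.11 at 8 months and -0.20 to 0.046 by age. Basement membrane medians ranged from -0.094 to 0.031 at 4 months, -0.31 to -0.12 at 8 months, -0.18 to -0.050 averaged and -0.061 to 0.038 by age. Other medians ranged from -0.060 to 0.013 at 8 months, -0.13 to 0.0038 averaged and 0.038 to 0.11 by age. The cause of these shifts was not tested.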
